A study of Homo sapiens with 3 samples.

Results

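The placental and intestinal alkaline phosphatases are 3 genes of chromosome 2, ALPP, ALPI and ALPPL2 (now called ALPG), taken by name from a table of 13247 protein-coding genes, in which all 3 were found. They were chosen by the CPM of ALPP in these same libraries, which is unusually high for cells of liver origin, so the levels below are a description and carry no test. The table holds RNA that came down with the helicase DDX49, carrying a Flag tag, from HHL5 cells, an immortalised human hepatocyte line that the labels also describe as embryonic liver cells of WT genotype. The 3 libraries form 1 group, replicates 1 to 3: all cells carried the transfected Flag-DDX49 construct and were kept for 24 h in OA/PA at 1.5 mM and a ratio of 2 to 1, by which oleic and palmitic acid are usually meant. RNA immunoprecipitation sequencing (RIP-seq) counts the RNA captured with the protein, here after ultraviolet cross-linking. No input, mock pull-down or untreated library was analysed here, so a level joins the abundance of a transcript in the cell with its recovery, and there is no comparison between conditions.

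Alkaline phosphatases are dimeric enzymes with zinc and magnesium in the active site that remove phosphate from many substrates outside the cell, and a glycosylphosphatidylinositol (GPI) anchor holds them in the outer leaflet of the plasma membrane. ALPP is made by the syncytiotrophoblast of the placenta and is known as a marker of some tumours that make it out of place, ALPI belongs to the brush border of intestinal epithelium, and ALPPL2 is known from germ cells and germ cell tumours. The isoenzyme that liver, bone and kidney share comes from ALPL, a more distant relative on chromosome 1. The 3 genes of chromosome 2 are near copies of each other, so reads can match more than one of them.

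The 3 genes lie in 1 cluster on the forward strand. In hg38, ALPP (ENSG00000163283) runs from 232378751 to 232382889, ALPPL2 (ENSG00000163286) from 232406844 to 232410714 and ALPI (ENSG00000163295) from 232456153 to 232460753, which leaves 23954 bases between ALPP and ALPPL2 and 45438 bases between ALPPL2 and ALPI. The span of ALPP overlaps a long noncoding RNA gene, LOC124906123, over 282 bases, whereas the spans of ALPI and ALPPL2 overlapped 0 other annotated genes. Whether counting used strand is not given, so reads of that noncoding RNA and of ALPP cannot be told apart in the overlap.

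The relation of the genes is visible in the bases before their starts. Whether these bases bear on the levels was not tested. The 150 bases that end just before each annotated start are from RefSeq (GRCh38.p14, forward strand), at chr2:232378601-232378750 for ALPP, chr2:232456003-232456152 for ALPI and chr2:232406694-232406843 for ALPPL2. Capitals mark runs of at least 10 bases that occur in all 3 windows.
ALPP: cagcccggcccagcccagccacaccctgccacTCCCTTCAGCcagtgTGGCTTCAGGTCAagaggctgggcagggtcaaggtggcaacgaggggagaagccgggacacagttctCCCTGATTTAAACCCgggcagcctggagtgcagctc
ALPI: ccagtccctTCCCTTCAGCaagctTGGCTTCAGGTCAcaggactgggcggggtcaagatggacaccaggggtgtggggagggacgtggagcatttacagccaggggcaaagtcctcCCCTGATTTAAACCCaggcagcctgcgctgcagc
ALPPL2: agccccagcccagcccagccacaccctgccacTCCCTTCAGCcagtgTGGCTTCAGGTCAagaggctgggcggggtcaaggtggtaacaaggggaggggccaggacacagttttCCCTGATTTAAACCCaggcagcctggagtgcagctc

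ALPP and ALPPL2 were identical at 140 of 149 aligned bases of these windows (93.96%), ALPP and ALPI at 102 of 125 (81.6%) and ALPI and ALPPL2 at 105 of 125 (84.0%), with bases opposite a gap left out. Over 250 bases before the start, identity was 92.6% for ALPP and ALPPL2, 71.9% for ALPP and ALPI and 74.0% for ALPI and ALPPL2. Among 35116 RefSeq promoters of this length, ALPPL2 gave the highest local alignment score with ALPP (185) and ALPI the next (61.0), while the best score of any other gene was 28.0. In the longest capital run all 3 windows hold the letters TTTAAA, whose first base lies 30, 28 and 30 bases before the start of ALPP, ALPI and ALPPL2. Read on either strand, TTTAAA occurred in 11.3% of all these promoters, and in 1.85% within the last 40 bases before the start. Within 250 bases of the start all 3 genes also share GGGTCAAG, found in 0.797% of promoters on either strand, and CCACACCC, found in 2.97%, whereas TATAAA was in none of the 3 and in 10.7% of all. These motifs were picked after reading the sequences, do not overlap one another before these 3 genes, and describe the letters only.

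ALPP was among the most abundant transcripts of the pull-down. Its counts were 7249, 5405 and 4085 in replicates 1, 2 and 3, or 3583, 3697 and 3725 CPM, where CPM is the count per 1000000 counts of the library. The libraries thus lay close together, and their 95% exact binomial intervals (3501 to 3666, 3600 to 3797 and 3612 to 3841 CPM) overlapped. The mean was 3669 ± 75.3 CPM (SD, n = 3), or 0.367% of all counts, and ALPP ranked 15 of 13247 genes by mean CPM, at places 15, 14 and 15 in the single libraries. Such intervals cover counting error only, and nothing in the labels says that the libraries came from separate cultures, so the spread may be technical.

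ALPI, the intestinal enzyme, was the next of the family. It had 364, 312 and 223 counts, or 180 (exact interval 162 to 199), 213 (190 to 238) and 203 (178 to 232) CPM in replicates 1, 2 and 3. The mean was 199 ± 17.2 CPM, at rank 991, and the intervals overlapped. ALPPL2, the germ cell enzyme, had 51, 38 and 39 counts, or 25.2 (18.8 to 33.1), 26.0 (18.4 to 35.7) and 35.6 (25.3 to 48.6) CPM. Its mean was 28.9 ± 5.77 CPM, at rank 5211, with replicate 3 highest and all intervals overlapping. The ranges of ALPP, ALPI and ALPPL2 over the libraries stayed apart from each other.

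ALPL, the isoenzyme known from liver, was the lowest of the 4 alkaline phosphatases in each library on the CPM scale. It had 18, 6 and 2 counts, or 8.90 (5.27 to 14.1), 4.10 (1.51 to 8.93) and 1.82 (0.221 to 6.59) CPM, with a mean of 4.94 ± 3.61 CPM. The mean rests on replicate 1, being 2.96 CPM without it. The intervals overlap, and counts this low do not place the libraries in an order. The table held 5 genes annotated by the authors with alkaline phosphatase activity, and ALPP took 94.0% of their summed mean CPM. The fifth, CILP2, had 0 counts in each library, which allows up to 1.48, 2.05 and 2.74 CPM (3 counts) in replicates 1, 2 and 3.

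**Figure D1:**
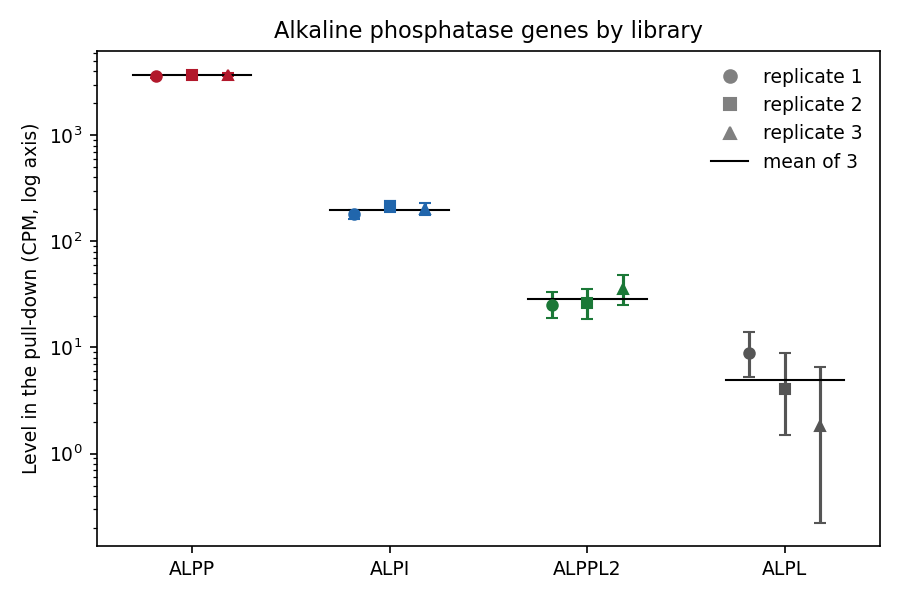
Level of each alkaline phosphatase gene in CPM (log axis) in the 3 libraries, with 95% exact binomial intervals as bars and the mean as a line. ALPP (mean 3669), ALPI (199), ALPPL2 (28.9) and ALPL (4.94) are shown in this order, and the points of the first 3 genes do not overlap between genes.

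Per kilobase of genomic span, introns included, ALPP stood far above its neighbours in the cluster. The spans are alike, 4139 bases for ALPP, 4601 for ALPI and 3871 for ALPPL2, and levels per kilobase of span were 886 ± 18.2 CPM for ALPP, 43.2 ± 3.74 for ALPI and 7.47 ± 1.49 for ALPPL2 (SD, n = 3). ALPP over ALPI was 22.1, 19.3 and 20.4 in replicates 1, 2 and 3, a mean of 20.6 ± 1.45. ALPP over ALPPL2 was 133, 133 and 97.96, a mean of 121 ± 20.2, and ALPI over ALPPL2 was 6.005, 6.91 and 4.81, a mean of 5.91 ± 1.05. ALPL, whose span of 69427 bases is mostly introns, was not placed on this scale. Transcript lengths were not used here. Reads shared between the 3 genes may enter these ratios, which was not tested.

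Within the cluster the split of counts was alike in the 3 libraries. Of the counts of the 3 genes, ALPI took 4.75% (exact interval 4.28 to 5.25), 5.42% (4.85 to 6.04) and 5.13% (4.49 to 5.83) in replicates 1, 2 and 3, a mean of 5.10% ± 0.337. ALPPL2 took 0.665% (0.496 to 0.874), 0.660% (0.468 to 0.905) and 0.897% (0.639 to 1.22), a mean of 0.741% ± 0.135, and the intervals of each gene overlapped. ALPP held the other 94.2% ± 0.370. The handling of reads that fit more than one of these genes is not stated, so the values of ALPI and ALPPL2 are uncertain in particular, and the part of shared reads in them was not tested.

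Genes of like level to ALPP came from other classes. By mean CPM over the 3 libraries, the 5 next above it were MT-CO3, a mitochondrially encoded subunit of cytochrome oxidase (10.5 CPM above ALPP), the glycolytic enzymes ENO1 (111 above) and GAPDH (406 above), the actin cross-linker FLNA (726 above) and the myosin MYH9 (788 above). The 5 next below were the chaperone HSP90AA1 (a difference of -54.5 CPM from ALPP), the growth factor receptor EGFR (-144), the glycolytic enzyme PKM (-430.4), the mitochondrial subunit MT-ND2 (-534) and the secreted chaperone CLU (-836). The nearest of these, MT-CO3 and HSP90AA1, had means within 1 SD of ALPP (75.3 CPM) from its mean. Their own SDs were 614 CPM for MT-CO3 and 25.9 CPM for HSP90AA1. Differences between genes were not tested. CPM takes no account of transcript length, so this order is one of counts. Among the 1003 genes with a genomic span of 3000 to 6000 bases, a range chosen after seeing the values, ALPP ranked 5 per kilobase of span, behind FTH1, ACTB, GAPDH and CALR, with ALPI at 108 and ALPPL2 at 340. The median of these genes was 3.06 CPM per kilobase.

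The spread of the 3 members between libraries was not detectably larger than counting error when libraries were scaled by their totals. In a chi-square test of the 3 counts of each gene against the totals, with Benjamini-Hochberg adjustment over the 8633 genes whose counts summed to 30 or more, 1691 genes (19.6%) differed at a threshold of 0.05. None of the 3 members was among them, with adjusted p of 0.198 for ALPP, 0.188 for ALPI and 0.384 for ALPPL2 in that chi-square test. ALPL, with a summed count of 26, was not tested. For ALPP the call depends on the scaling: with TMM factors its adjusted p was 0.00178 (18.6% of genes called) and with DESeq2 size factors 0.000394 (18.5% called). With TMM its 3 libraries had 3507, 3713 and 3790 CPM, so the coefficient of variation was 3.98%, against 2.05% with library totals. With DDX49 left out of the totals, the adjusted p of ALPP was 0.0521 (19.2% called) and its coefficient of variation 2.81%.

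The coefficient of variation followed the depth behind each member. It was 2.05% for ALPP, 8.64% for ALPI, 19.9% for ALPPL2 and 73.1% for ALPL, where counting error alone gives 1.38%, 5.95%, 15.8% and 34.8%. These values are for library totals, and for ALPP the coefficient was 3.98% with TMM factors and 4.41% with DESeq2 size factors. The comparisons below with genes near in rank used library totals only. Of the 64 genes nearest to ALPP in rank (14 above and 50 below), 9 had a smaller coefficient, and the median of the 64 was 5.45%. Their mean levels ran from 1466 to 42565 CPM, so they match ALPP in level only loosely. Of 100 genes around ALPI, 55 had a smaller one (median 8.13%), and of 100 around ALPPL2, 45 (median 22.04%). ALPL varied more than most, with 82 of 100 genes around it having a smaller coefficient (median 53.1%).

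**Figure D2:**
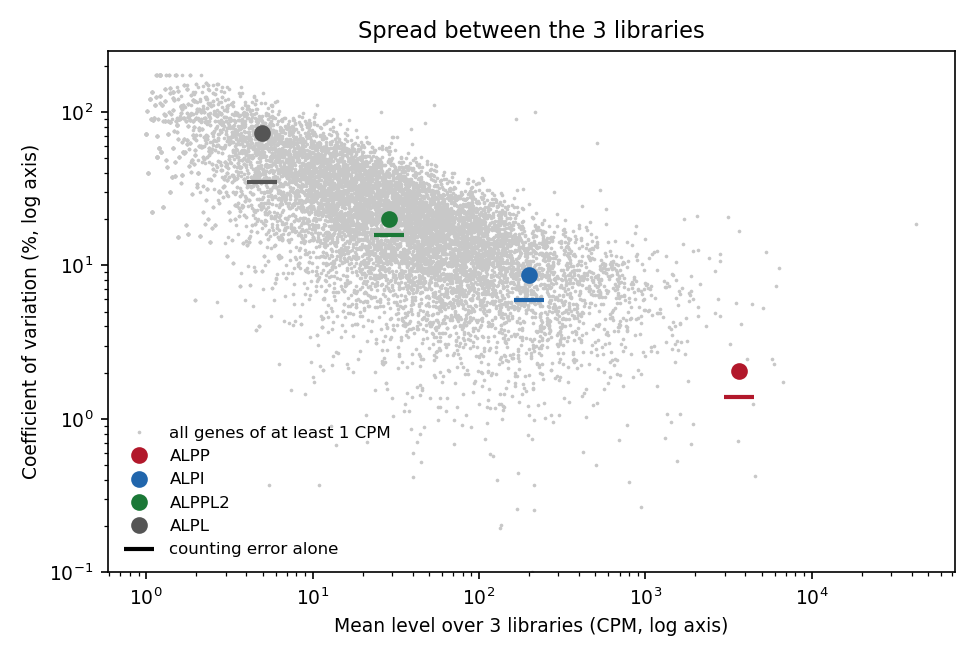
Coefficient of variation over the 3 libraries (%, log axis) against mean level (CPM, log axis) for all genes of at least 1 CPM (grey) and the alkaline phosphatases (colour), with short bars for the coefficient that counting error alone gives. Libraries were scaled by their totals. On that scaling ALPP (2.05%) lies in the lower part of the genes nearest to it in rank, and ALPI (8.64%) and ALPPL2 (19.9%) lie among theirs. With TMM factors, not drawn, ALPP had 3.98%.

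Around the cluster, high counts were not shared by the neighbouring genes as a group. Within 500000 bases of ALPP on either side, 13 of 16 annotated protein-coding genes were in the table, and the 10 that are no alkaline phosphatase had a median of 4.26 CPM, with 3 of them below 1 CPM. PRSS56, a trypsin-like serine protease known for its role in eye growth, was the highest of these 10 with 1110, 889 and 687 counts, or 549, 608 and 626 CPM. Its mean was 594 ± 40.7 CPM at rank 256, or 112 CPM per kilobase of a span of 5329 bases, so on that scale it lay between ALPP and ALPI. PRSS56 (232520388 to 232525716) was followed by EIF4E2, a cap-binding protein, at 110 ± 7.29 CPM and by NGEF, a guanine nucleotide exchange factor, at 31.8 ± 1.54 CPM.

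The other neighbours were low. DIS3L2, an exoribonuclease and the next protein-coding gene before ALPP, had 22, 2 and 18 counts (9.55 ± 7.61 CPM), and it differed between libraries in the chi-square test with an adjusted p of 0.00414. TIGD1 had 6.12 ± 2.60 CPM, EFHD1 2.39 ± 2.24, and CHRND, a subunit of the muscle acetylcholine receptor, 1.76 ± 1.73. ECEL1, a membrane protease and the next protein-coding gene after ALPI, had 1 count in all, as did SNORC and GIGYF2. GIGYF2 is a translation regulator used by most cells, and the ribosomal protein RPL5 had 1 count and the elongation factor EEF1G 0 counts in the 3 libraries together. A count near 0 in this table is therefore no measure that a gene is silent in the cells.

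**Figure D3:**
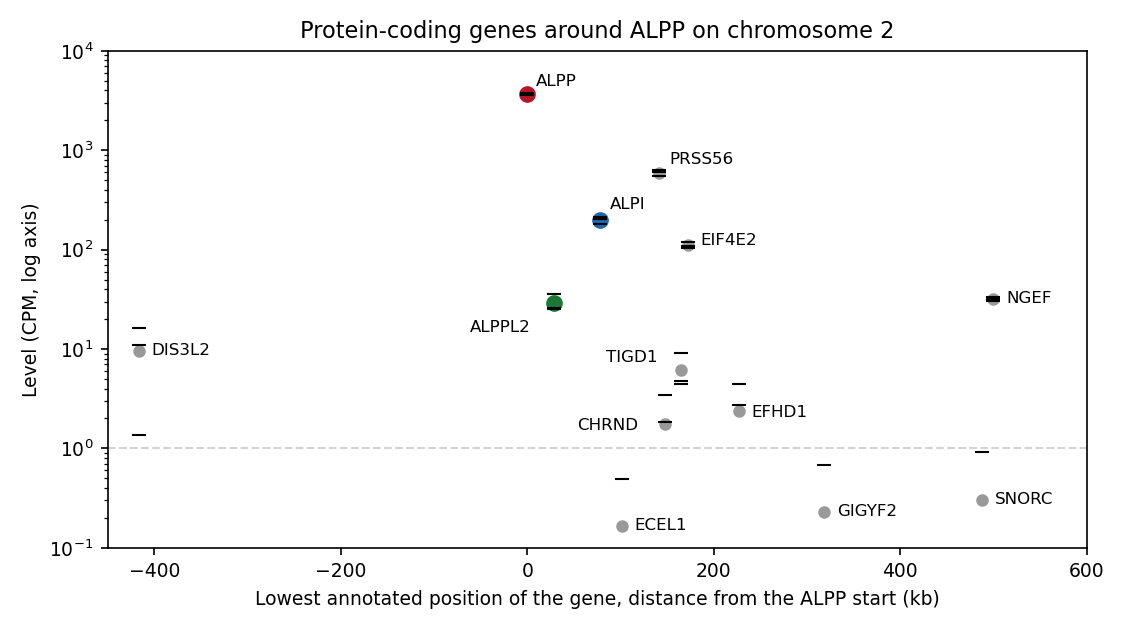
Mean level (CPM, log axis, large points) and level in each library with at least 1 count (short bars) of the 13 protein-coding genes around ALPP, by the distance of their lowest annotated position from the ALPP start in kilobases. ALPP (3669 CPM) is highest, PRSS56 (594) and ALPI (199) follow, and 3 genes have means below 1 CPM, marked by the dashed line.

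ALPP also had the highest CPM among genes annotated as anchored in the membrane, a label that does not name the GPI anchor. Of 47 genes that the authors' annotation places as anchored components of the membrane, it ranked 1 and took 45.8% of their summed mean CPM. ALPI was at rank 7 and ALPPL2 at rank 15. The median of the mean CPM of the 47 genes was 8.59, and 14 were below 1 CPM. In a list of 46 other GPI-anchored proteins 34 were in the table. Their median was 18.3 ± 1.03 CPM, against 16.7 ± 0.510 for all genes, each as mean and SD of the per-library medians. Highest were CD55, which restrains complement (1604 ± 110 CPM), BST2, which tethers budding viruses (669 ± 68.7), and LY6K (323 ± 23.0). The complement inhibitor CD59 (322 CPM) and the urokinase receptor PLAUR (258) came near them. Of the list 8 members were below 1 CPM, and LY6D, GPC6 and CD14 had 0 counts. In the chi-square test 9 of 24 tested members differed between libraries, beside 19.6% of all tested genes.

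The genes that make and attach the GPI anchor were present at low to middling counts. Anchor synthesis, with 19 of 20 listed genes in the table, had a median of 10.4 ± 1.48 CPM. Its highest members were PIGQ, a subunit of the enzyme of the first step (59.7 CPM), DPM2, a subunit of the synthase for the mannose donor (52.6), and PIGO, which adds the ethanolamine phosphate that later joins the protein (44.5), while PIGZ had 0 counts. PIGA, the catalytic subunit of the first step, had 2, 0 and 6 counts, or 2.15 CPM. Of the transamidase that joins the anchor to proteins such as ALPP, 4 of 5 listed subunits were in the table, with PIGS at 166 CPM, GPAA1 at 131 and PIGK, the catalytic subunit, at 19.4. The list of remodelling and release genes had a median of 9.08 ± 1.60 CPM over 11 members. Its highest were the cargo receptors TMED2 (363) and TMED10 (241) and the phosphodiesterase GDE1 (230.5). Whether GDE1 acts on GPI anchors was not tested. GDPD5 had 46.9 CPM, and PGAP3 and MPPE1 were below 1 CPM. Differences between libraries passed the chi-square test in 2 of 12 tested synthesis genes, 2 of 4 transamidase genes and 1 of 6 remodelling genes, beside 19.6% of all tested genes; counts this small do not set the lists apart from it.

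Genes that handle the metals, phosphate and substrates of these enzymes were in the table for 14 of 17 listed, and 0 of these lay below 1 CPM. Their median was 34.6 ± 4.55 CPM. The zinc transporter SLC39A7 (448 CPM), the pyridoxal kinase PDXK (388) and ANKH, which exports ATP and citrate (149), were highest. The zinc transporters SLC30A5 (28.8 CPM), SLC30A7 (25.1) and SLC30A6 (2.70) serve the loading of zinc into alkaline phosphatases in the secretory pathway. In the authors' pathway annotation the 4 phosphatases belong to folate biosynthesis, a set of 13 genes here, in which ALPP took 87.7% of the summed mean CPM. The highest gene of that set outside the family was the hydrolase GGH (75.5 CPM), and GCH1, the entry enzyme of pterin synthesis, had 4.99 CPM.

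**Figure D4:**
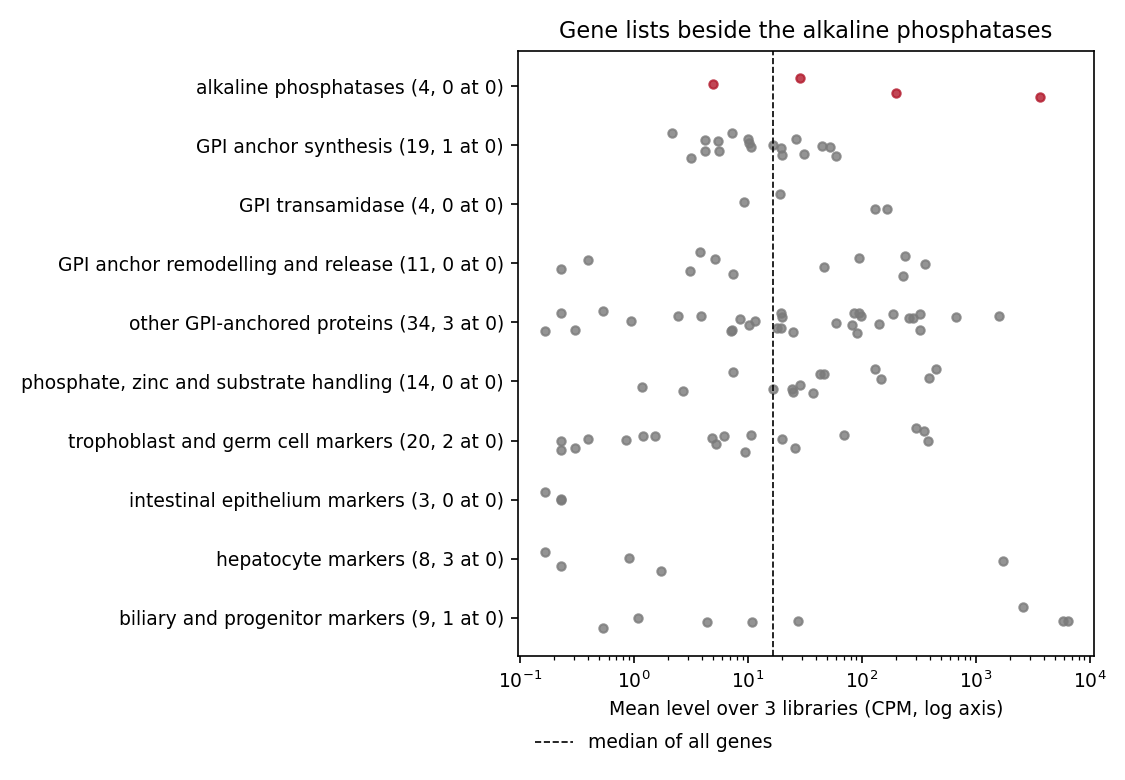
Mean level over 3 libraries (CPM, log axis) of the members of each gene list, with the number in the table and the number at 0 counts beside its name. Genes at 0 counts are not drawn, the dashed line is the median of all genes (16.7 CPM), and ALPP (3669 CPM) exceeds each drawn gene of the other lists except the keratins KRT8 and KRT7.

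Where the table held them, listed markers of the tissues that normally make these enzymes were mostly low or at 0. Exceptions were some transcription factors and PEG10. Listed markers absent from the table have no value here, and a count near 0 is no measure that a gene is silent. Of 37 trophoblast and germ cell markers 20 were in the table, with a median of 4.60 ± 0.173 CPM, 7 below 1 CPM, and a summed level of 1145 to 1233 CPM over the libraries. The transcription factors TFAP2A (382 CPM) and GATA2 (301) and the imprinted gene PEG10 (351), all of which are also made outside the placenta, held most of that sum. TEAD4, a transcription factor of early trophoblast that other cells use too, had 70.6 CPM. The pregnancy-specific glycoprotein PSG4 had 26.1 CPM, the protease PAPPA 19.8 and CGA, the shared hormone alpha subunit, 10.6, while GCM1, a factor of syncytiotrophoblast formation, and PSG3 had 0 counts. Of 21 intestinal markers 3 were in the table, VIL1, ANPEP and KRT20, with 1 count each over the 3 libraries, and the summed level was 0 to 1.37 CPM. The part of such cells in the levels of ALPP and ALPI was not tested.

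The listed hepatocyte markers that the table held were near 0 as well, with CPS1 as the exception. Of 21 hepatocyte markers 8 were in the table, 6 of them below 1 CPM, and CYP2E1, FGA and FGB had 0 counts. CPS1, which starts the urea cycle, had 1726 CPM and made up nearly all of the summed level of 1676 to 1765 CPM, with CEBPA at 1.72 CPM and APOA2 at 0.912 CPM next. Of 11 biliary and progenitor markers 9 were in the table, with KRT8 (6409 CPM), KRT7 (5813) and KRT18 (2608) highest and KRT19 at 0 counts. KRT8, KRT7 and KRT18 were placed in this list only, and whether they mark other tissues as well was not tested.

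The libraries held 2023133, 1461858 and 1096586 counts in replicates 1, 2 and 3, so 1 count equalled 0.494, 0.684 and 0.912 CPM, and replicate 1 has the smallest counting error. DDX49, the protein captured, took 3.53%, 4.15% and 5.09% of the counts, and the construct and the cells' own DDX49 mRNA cannot be told apart in these counts. That share moves with the scaling of each other gene, ALPP included, whose mean is 3832 CPM with DDX49 left out of the totals, against 3669 CPM with it.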

How the data were processed

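The deposited table gives raw counts per gene for 3 RIP-seq libraries, per the file headers, and the submitters' processing notes name CASAVA 1.4 and hg38. Neither the aligner and the counter nor the use of strand and of multi-mapping reads is given in the sources used here. A further 3 per-sample columns, repeating the names of the count columns, were not used. Counts were divided by library totals (CPM). Symbols and positions came from RefSeq (GRCh38.p14), in which 12819 genes (96.8%) matched by gene identifier, and upstream sequences from its promoter table, where all 3 members matched. No pseudocount or filter on low values was applied to levels. Medians of the gene lists and of all genes are means of the per-library medians, and the SD printed beside them is the SD of those medians.

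Members and 10 gene lists were chosen with earlier results of these data known. Named genes were the 4 phosphatases, 5 genes on either side of ALPP in mean CPM, the 3 highest of each list with members at 0 counts, and genes within 500000 bases of ALPP; further list members were named after their values were seen. The chi-square test, with Benjamini-Hochberg adjustment, compares libraries of 1 group. It was tried on simulated data with counting error and planted changes only, so further spread between libraries was not simulated. Intervals are exact (Clopper-Pearson) at 95%. Python 3.11.15, numpy 2.4.6, scipy 1.17.1, pandas 2.3.3, Biopython 1.88, matplotlib 3.10.9, and R 4.3.3 with edgeR 4.0.16 (TMM) and DESeq2 1.42.0 (size factors) were used.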

Additional observations from a re-analysis of the deposited data

How the results depend on the processing

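The scalings of the chi-square test and the rank with DDX49 left out of the totals were added after seeing the data; the others were planned. Of 119 comparisons with an alternative, 107 kept their call or stayed within 1 SD (1.5 times for a count), 10 moved and 2 passed the threshold newly. Leaving DDX49 out of the totals moved ALPP to 3832 CPM, since every other gene rises with it. ALPP's difference between libraries passed the threshold with TMM scaling (adjusted p = 0.00178) and with DESeq2 size factors (0.000394), in the chi-square test. Over all alternatives its adjusted p ranged from 0.000394 to 0.884. Per kilobase of span the share of ALPI was 4.61%. With 1 replicate left out, the rank of ALPP was 14 to 15, being 14 without replicate 3, and the number of genes that differed was 474 (without replicate 3) to 1322 (without replicate 2), with 505 without replicate 1; the cause was not tested. ALPL had 2.96 CPM without replicate 1. Restricted to members of at least 1 CPM, list medians were 46.9 CPM for anchor remodelling, 66.6 for other GPI-anchored proteins, 12.3 for trophoblast and germ cell markers, 864 for hepatocyte markers and 27.5 for biliary markers, since low members were left out. The hepatocyte value lies midway between CPS1 (1726 CPM) and CEBPA (1.72 CPM), the only markers of that list left. No intestinal marker reached 1 CPM, so that alternative gave no value. No paired analysis was possible because the series has 1 group. Depth limits ALPL and the markers at a few counts.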
